A study of Mus musculus with 6 samples.

Results

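The genes described here encode the enzymes of cholesterol synthesis and of fatty acid synthesis, the proteins that control both, and a few proteins that move, store or export sterol. A list of 37 mouse genes was matched to the array by symbol, and only probe sets naming exactly 1 gene were taken. In all 35 of the 37 genes were found, on 70 of the 21556 probe sets tested, which stand for 13215 genes. Insig1 and Acsl3 were not analysed here. The 35 genes fall into 17 sterol synthesis enzymes with 32 probe sets, 4 regulators with 7, 9 genes of fatty acid synthesis with 19, and 5 genes of sterol transport and esterification with 12.

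RNA came from mOS482, a mouse osteosarcoma line grown out of a spontaneous tumour without Rb and p53. One group of 3 arrays is labelled Sox2 shRNA, for cells that stably carry a hairpin against the stem cell transcription factor Sox2, and the other 3 arrays are of cells with a scrambled hairpin. Both groups carry the same loss of Rb and p53 and the same hygromycin selection, and the 3 arrays of a group came from 3 plates of 1 infected population. The p-values rest on variation among those plates and arrays, which may be technical, and in bulk RNA fewer cells of a type and less RNA per cell cannot be told apart.

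Cholesterol is built from acetyl-CoA through mevalonate, isoprenoid units, squalene and lanosterol, and fatty acids are built from the same acetyl-CoA through malonyl-CoA. Both routes are under the sterol regulatory element binding proteins, which Scap escorts out of the endoplasmic reticulum when sterol is scarce and which Insig proteins hold back when sterol is plentiful. Liver X receptors answer the opposite state, in which oxysterols accumulate, by turning on export genes such as Abca1. In mouse promoters of sterol genes, these binding proteins are known to work beside NF-Y, which binds CCAAT, and Sp1, which binds GC boxes.

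Promoters of 8 members are printed because they set enzymes that fell beside members that rose. Each runs 250 bases up to the start of the gene, from RefSeq on GRCm38.p6, 5′ to 3′ on the strand of the gene. Capitals mark the NF-Y box, CCAAT or its reverse complement ATTGG, and the sterol regulatory element TCACNCCAC. In the order printed they are Hmgcs1 at chr13:119690101-119690350 on the plus strand, Idi1 at chr13:8885356-8885605 on the plus strand and Cyp51 at chr5:4104698-4104947 on the minus strand. They go on with Msmo1 at chr8:64733579-64733828 on the minus strand, Elovl6 at chr3:129532136-129532385 on the plus strand and Fads2 at chr19:10101504-10101753 on the minus strand. Npc2 at chr12:84773113-84773362 and Abca1 at chr4:53159896-53160145, both on the minus strand, come last.
Hmgcs1: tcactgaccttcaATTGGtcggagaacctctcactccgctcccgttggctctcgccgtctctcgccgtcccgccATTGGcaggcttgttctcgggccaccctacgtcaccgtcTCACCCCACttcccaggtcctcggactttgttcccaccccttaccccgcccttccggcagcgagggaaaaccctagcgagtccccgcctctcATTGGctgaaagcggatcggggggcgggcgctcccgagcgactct
Idi1: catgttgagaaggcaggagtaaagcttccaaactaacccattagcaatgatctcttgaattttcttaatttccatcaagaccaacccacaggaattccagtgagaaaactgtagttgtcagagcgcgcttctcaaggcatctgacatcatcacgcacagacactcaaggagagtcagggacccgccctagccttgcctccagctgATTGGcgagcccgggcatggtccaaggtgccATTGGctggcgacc
Cyp51: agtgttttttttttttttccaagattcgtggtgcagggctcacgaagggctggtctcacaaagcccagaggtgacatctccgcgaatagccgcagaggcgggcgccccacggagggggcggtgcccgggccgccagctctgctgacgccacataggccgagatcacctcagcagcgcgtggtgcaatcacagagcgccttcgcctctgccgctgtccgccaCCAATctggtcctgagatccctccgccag
Msmo1: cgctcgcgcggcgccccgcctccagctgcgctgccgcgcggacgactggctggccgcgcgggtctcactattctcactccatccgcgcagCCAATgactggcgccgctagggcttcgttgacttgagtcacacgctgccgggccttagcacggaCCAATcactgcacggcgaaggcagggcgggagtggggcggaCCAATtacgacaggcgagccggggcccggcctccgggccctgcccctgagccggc
Elovl6: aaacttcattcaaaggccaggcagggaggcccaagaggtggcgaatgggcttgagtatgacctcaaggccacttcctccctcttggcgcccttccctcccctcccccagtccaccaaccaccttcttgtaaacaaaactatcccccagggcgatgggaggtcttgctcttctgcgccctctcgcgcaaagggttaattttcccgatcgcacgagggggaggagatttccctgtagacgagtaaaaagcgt
Fads2: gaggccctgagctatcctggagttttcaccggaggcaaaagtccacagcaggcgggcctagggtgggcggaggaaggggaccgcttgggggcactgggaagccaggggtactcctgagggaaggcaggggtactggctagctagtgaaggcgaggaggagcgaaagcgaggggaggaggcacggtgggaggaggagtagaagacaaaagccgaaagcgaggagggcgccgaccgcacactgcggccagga
Npc2: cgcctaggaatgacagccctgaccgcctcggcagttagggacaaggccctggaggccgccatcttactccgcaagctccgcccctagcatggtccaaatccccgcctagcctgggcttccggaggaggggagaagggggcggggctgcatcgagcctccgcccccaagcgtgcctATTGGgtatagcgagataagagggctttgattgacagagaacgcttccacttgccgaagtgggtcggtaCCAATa
Abca1: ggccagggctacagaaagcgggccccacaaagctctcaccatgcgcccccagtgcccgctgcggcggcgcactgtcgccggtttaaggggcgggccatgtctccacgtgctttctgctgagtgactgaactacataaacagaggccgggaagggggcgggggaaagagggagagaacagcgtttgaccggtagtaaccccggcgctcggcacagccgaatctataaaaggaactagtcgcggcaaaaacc

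The 4 sterol synthesis and isoprenoid promoters at the top hold 3, 2, 1 and 3 NF-Y boxes, and that of Hmgcs1 also holds the sterol regulatory element, which starts 137 bases before the gene. The Npc2 promoter holds 2 NF-Y boxes, while those of Elovl6, Fads2 and Abca1 hold neither motif. Counted over a window of 300 bases, which adds 50 after the start, an NF-Y box was found in 14 of the 14 sterol synthesis genes with a promoter entry and in 41.1% of all genes. Those 14 include Mvk, Pmvk, Mvd, Tm7sf2, Hsd17b7 and Dhcr7, whose probe sets did not pass the test between the groups. The GC box GGGCGG was in 13 of the 14 (38.2% of all genes), the E-box CACGTG in 3 of the 14 (8.09% of all genes) and the sterol regulatory element in 1 of the 14 (1.44% of all genes). All motifs were searched on both strands and could overlap, and a match is a description of letters, not a site. The sterol regulatory element was searched in the 1 form TCACNCCAC only, so a promoter without a match is not shown to lack such an element. An NF-Y box was in 3 of 4 regulators, 3 of 6 genes of fatty acid synthesis and 2 of 3 genes of sterol transport. Fdps, Fdft1, Sqle, Scd1, Scd2, Fads1, Stard4 and Npc1 had no entry.

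Values are the authors' RMA values on the log2 scale, set near 0 for every probe set in the scrambled arrays, so levels are unknown and only differences between arrays can be read. A difference is Sox2 shRNA minus scrambled on the log2 scale, given as estimate ± limma's SE from 3 arrays a group, and a probe set was called lower or higher at a Benjamini-Hochberg adjusted p under 0.05 over the 21556 probe sets. Over all probe sets 20.5% were called lower and 14.6% higher, with a median difference of 0.075. The probe set of Sox2 itself read 0.17, 0.055 and 0.58 in the arrays labelled Sox2 shRNA, against 0.069, -0.039 and -0.033 in scrambled arrays. Its difference of 0.27 ± 0.15 did not pass (limma adjusted p = 0.18), so depletion of Sox2 mRNA does not show on this probe set. The mean of 45 spike-in control probe sets was 0.67, 0.32 and 0.27 in Sox2 shRNA arrays and 0.11, -0.060 and -0.10 in scrambled arrays, and the Actb 3′ minus 5′ signal was 1.55, 0.65 and 0.58 in Sox2 shRNA arrays, against 0.32, -0.027 and -0.32 in scrambled arrays. Both differed by an amount (0.44 and 0.94) whose two-sided exact permutation p was 0.1, the smallest that 3 arrays against 3 allow. The Gapdh 3′ minus 5′ signal was 0.48, 0.24 and 0.18 in Sox2 shRNA arrays, against 0.25, -0.032 and -0.18 in scrambled arrays, with overlap (difference 0.29, exact p = 0.3). Their part in the results was not tested, but a fit with the spike-in level as covariate is given beside each list. The spike-in level was higher in every Sox2 shRNA array than in every scrambled array. With so few arrays that fit therefore cannot tell group and spike-in level apart, whether a call was kept or lost in it.

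Of the 70 member probe sets 32 were lower and 6 higher in the arrays labelled Sox2 shRNA, and 32 were not called. That is 45.7% lower and 8.57% higher, against the 20.5% and 14.6% over all probe sets, and the median difference of the members was -0.36. At least 1 lower probe set was found for 22 of the 35 genes and at least 1 higher for 4, with Scd1 counted in both. Over all 13215 genes these were 3476 and 2603, and such counts rise with the number of probe sets per gene. All values of the Sox2 shRNA arrays lay below all scrambled values in 36 of the 70 probe sets, against 26.9% of all probe sets, and above them in 8, against 26.5%. With a spike-in covariate 18 were lower and 3 higher, against 7.13% and 5.65% of all probe sets. Quantile normalization, which gives every array the same spread, left 1 lower and 1 higher (20 and 3 at an unadjusted p under 0.05). The share of all probe sets called in that fit was not counted, so neither these counts nor those of the lists below can be set against it. The values that quantile normalization was run on are already centred near 0 in the scrambled arrays. Their standard deviation over all probe sets was 0.089 to 0.11 in scrambled arrays and 0.57 to 0.73 in Sox2 shRNA arrays. With quantile normalization the median difference of the members was -0.17, and the part of the common spread in the lost calls was not tested.

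Sterol synthesis enzymes moved down or were not called. Of their 32 probe sets 17 were lower (53.1%) and 0 higher by limma, against 20.5% and 14.6% of all probe sets, with 0 higher also at an unadjusted p under 0.05. Quantile normalization left 1 of the 32 lower (13 at an unadjusted p under 0.05). The falls were in 11 of the 17 genes, against 3476 of all 13215 genes with at least 1 lower probe set. By at least 2-fold, 12 of the 32 probe sets were lower, against 4.95% of all probe sets. The median difference was -0.45, and the probe set differences ran between -1.58 and 0.19. The medians over the 32 probe sets were -0.43, -0.47 and -0.46 in Sox2 shRNA arrays and -0.0017, 0 and 0.020 in scrambled arrays, so each array of the Sox2 shRNA group sat below each scrambled array. With the spike-in covariate 14 of the 32 were lower and 0 higher (2 at an unadjusted p under 0.05), against 7.13% and 5.65% of all probe sets. The median difference was then -0.54.

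**Figure D1:**
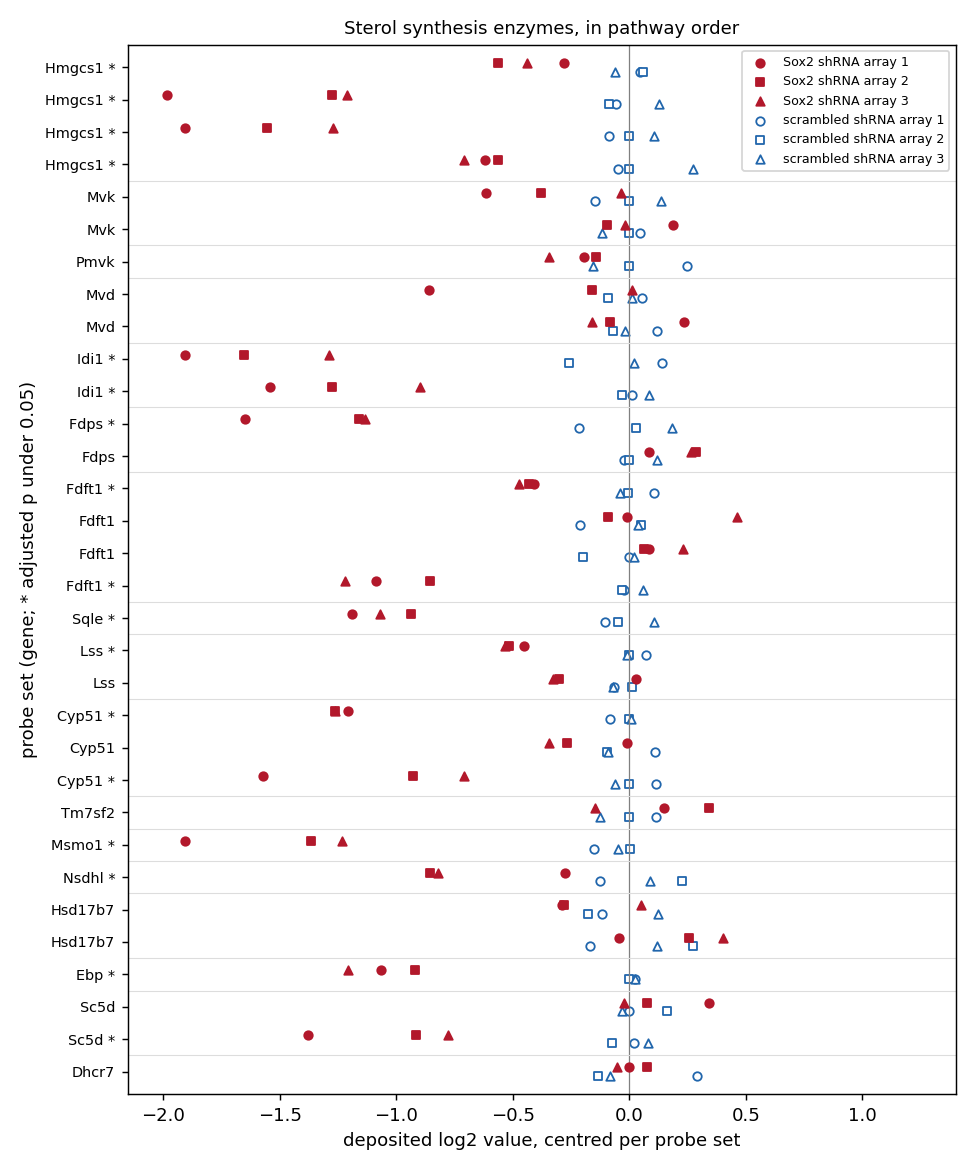
Centred log2 value on the horizontal axis of each array for the 32 probe sets of the 17 sterol synthesis genes, in pathway order down the page, with filled red points for the 3 Sox2 shRNA arrays, open blue points for the 3 scrambled arrays and an asterisk at a limma adjusted p under 0.05. Red points lie left of blue ones for each probe set with an asterisk, such as those of Hmgcs1, Idi1, Msmo1 and Ebp, while Mvk, Pmvk, Mvd, Hsd17b7 and Dhcr7 overlap.

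The first committed steps of the pathway were split. Hmgcs1, which condenses acetoacetyl-CoA and acetyl-CoA into the precursor of mevalonate, fell on all 4 of its probe sets. The probe set 1433445_x_at read -1.91, -1.55 and -1.27 in Sox2 shRNA arrays, against -0.085, 0 and 0.11 in scrambled arrays. The groups did not overlap, and the difference of -1.58 ± 0.16 is 3.00-fold lower (limma adjusted p = 3.4e-04). The other 3 Hmgcs1 probe sets had differences of -1.49 ± 0.20, -0.70 ± 0.12 and -0.44 ± 0.11, so the 4 differ in size although all point down. The smallest of them lost its call without scrambled array 1 (-0.43) or array 2 (-0.42). The next 3 enzymes turn mevalonate into the first isoprenoid, and none of their 5 probe sets was called: Mvk, mevalonate kinase, differed by -0.34 and 0.049, Pmvk, phosphomevalonate kinase, by -0.26, and Mvd, the decarboxylase, by -0.33 and -0.015. Mvd read -0.86, -0.16 and 0.011 in the Sox2 shRNA arrays, so array 1 stood apart from the other 2. The first Mvk probe set was called without Sox2 shRNA array 3 (-0.49).

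Each of the 4 enzymes of the isoprenoid and squalene steps had a probe set that fell. Idi1, the isomerase that makes the second isoprenoid building block, read -1.91, -1.65 and -1.29 in Sox2 shRNA arrays, against 0.14, -0.26 and 0.021 in scrambled arrays. All 3 Sox2 shRNA arrays were far below the scrambled ones (difference -1.58 ± 0.18, limma adjusted p = 4.9e-04), and its second probe set fell by 1.26 ± 0.16. Fdps, which joins isoprenoids into farnesyl diphosphate, read -1.65, -1.16 and -1.13 in Sox2 shRNA arrays, against -0.22, 0.031 and 0.18 in scrambled arrays. The groups were apart by -1.31 ± 0.17 (limma adjusted p = 9.3e-04). The other Fdps probe set, 1438150_at, differed by 0.18 and was not called, and the deposited table aligns it to chromosome 10 from 93242264 to 93242512 (build not stated) rather than to the gene on chromosome 3. Fdft1, squalene synthase, read -1.09, -0.85 and -1.22 in Sox2 shRNA arrays, against -0.021, -0.031 and 0.059 in scrambled arrays. It fell by 1.06 ± 0.12 on that probe set and fell by 0.46 ± 0.094 on a second, while 2 more differed by 0.16 and 0.19 and were not called. The 2 Fdft1 probe sets that fell have 2 deposited alignments each, the first listed on the plus strand of chromosome 14 from 19363811 and 19365229. The 2 not called have 1 alignment each, on the minus strand of chromosome 14 from 63765241 to 63765563. The part of alignment in this split was not tested. Sqle, squalene epoxidase, a rate-limiting enzyme of the late pathway, read -1.19, -0.94 and -1.07 in Sox2 shRNA arrays, against -0.10, -0.048 and 0.10 in scrambled arrays. Its groups did not overlap and its arrays of 1 group lay close together (difference -1.05 ± 0.11, limma adjusted p = 3.9e-04).

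Of the 9 enzymes that make lanosterol and turn it into cholesterol, 6 had a probe set that fell. Lss, lanosterol synthase, fell by 0.52 ± 0.091 on 1 of 2 probe sets and differed by -0.16 on the other, which was called without Sox2 shRNA array 1 (-0.27). Cyp51, the cytochrome P450 that demethylates lanosterol, read -1.21, -1.26 and -1.26 in Sox2 shRNA arrays, against -0.080, 0 and 0.0084 in scrambled arrays. The 3 Sox2 shRNA arrays were nearly equal, and the difference of -1.22 ± 0.091 had the smallest adjusted p of all sterol synthesis probe sets (limma adjusted p = 8.0e-05). A second Cyp51 probe set fell by 1.09 ± 0.21, with array 1 lowest (-1.57, -0.93 and -0.71 in Sox2 shRNA arrays), and the remaining one differed by -0.18 and was not called. Msmo1, the methylsterol oxidase listed as Sc4mol, read -1.91, -1.36 and -1.23 in Sox2 shRNA arrays, against -0.15, 0.0056 and -0.046 in scrambled arrays. The groups were apart by -1.44 ± 0.17, or 2.71-fold lower (limma adjusted p = 7.2e-04).

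Nsdhl, which acts with Msmo1 to take off the methyl groups, read -0.28, -0.85 and -0.82 in Sox2 shRNA arrays, against -0.13, 0.23 and 0.091 in scrambled arrays. Array 1 of the Sox2 shRNA group was nearest to the scrambled arrays, and the difference of -0.71 ± 0.17 (limma adjusted p = 0.0157) lost its call without scrambled array 2 (-0.63) or array 3 (-0.70). Ebp, the sterol isomerase, read -1.06, -0.92 and -1.21 in Sox2 shRNA arrays, against 0.025, 0 and 0.024 in scrambled arrays. It fell by 1.08 ± 0.11 with no overlap (limma adjusted p = 2.7e-04). Sc5d, the sterol desaturase before the last step, fell by 1.03 ± 0.16 on 1 probe set and differed by 0.089 on the other. Tm7sf2, a sterol reductase, differed by 0.12, Hsd17b7, the keto-sterol reductase, by -0.12 and 0.13, and Dhcr7, which makes cholesterol in the last step of one branch, by -0.018. None of these 4 probe sets was called at this precision. Nsdhl and Ebp lie on the X chromosome and Lss on chromosome 10, where 35.4% and 35.6% of all probe sets were lower, and 14 of the sterol synthesis probe sets were lower without the members there.

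Each of the 4 regulators had a lower probe set, as did 3476 of all 13215 genes. Of 7 probe sets of 4 genes 5 were lower (71.4%) and 0 higher by limma (0 also at an unadjusted p under 0.05), against 20.5% and 14.6% of all probe sets. The median difference was -0.55. Insig2, which retains Scap in the endoplasmic reticulum, read -1.25, -1.17 and -1.18 in Sox2 shRNA arrays, against -0.23, 0.0077 and 0.17 in scrambled arrays on 1 probe set. The difference of -1.18 ± 0.12 (limma adjusted p = 3.4e-04) was shared by a second probe set, which fell by 1.08 ± 0.14. The last Insig2 probe set spread over -1.0, -0.41 and 0.020 in Sox2 shRNA arrays and was not called (difference -0.46), though it was without Sox2 shRNA array 3 (-0.70). Scap, the escort protein, read -0.65, -0.51 and -0.49 in Sox2 shRNA arrays, against -0.019, 0 and 0.031 in scrambled arrays. All 3 Sox2 shRNA arrays lay together, -0.55 ± 0.096 from the scrambled ones (limma adjusted p = 0.00344).

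The genes of the binding proteins themselves gave wider spreads. Srebf2, whose protein chiefly drives sterol genes, read -1.40, -0.46 and -0.74 in Sox2 shRNA arrays, against -0.10, 0 and 0.12 in scrambled arrays on 1 probe set. Array 1 was lowest, and the difference of -0.87 ± 0.22 (limma adjusted p = 0.0186) lost its call without scrambled array 2 (-0.87) or array 3 (-0.81), while the other probe set differed by -0.084. Srebf1, whose proteins chiefly drive fatty acid genes, read -0.83, -0.47 and -0.24 in Sox2 shRNA arrays, against -0.12, -0.00081 and 0.13 in scrambled arrays. Its difference of -0.52 ± 0.16 (limma adjusted p = 0.0368) lost its call without Sox2 shRNA array 2 (-0.54) and without each scrambled array (between -0.58 and -0.46). With the spike-in covariate 1 of the 7 probe sets was lower, against 7.13% of all probe sets, and the median difference was -0.11. In that fit Srebf2 differed by -0.074 and Srebf1 by 0.032. The Insig2 probe set given first kept its call, at -0.96 (limma adjusted p = 0.0194), and with quantile normalization 0 of the 7 were lower by limma (3 at an unadjusted p under 0.05).

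Genes of fatty acid synthesis were mixed. Of 19 probe sets of 9 genes 9 were lower and 3 higher, which is 47.4% and 15.8% against 20.5% and 14.6% of all probe sets, and the median difference was -0.12. Without _x_at and _s_at probe sets the median was -0.43, and quantile normalization left 0 lower and 0 higher by limma (4 and 0 at an unadjusted p under 0.05). Acly, which cuts citrate to give the acetyl-CoA that both routes start from, read -1.45, -0.89 and -1.07 in Sox2 shRNA arrays, against -0.14, 0 and 0.14 in scrambled arrays. It fell by 1.14 ± 0.16 there (limma adjusted p = 0.0013) and fell by 0.43 ± 0.14 on a second probe set, which lost its call without each array but Sox2 shRNA array 1 (lowest -0.50, highest -0.36). The 3 remaining Acly probe sets, all of the _x_at kind, differed by 0.16, 0.20 and 0.29 and were not called. Acaca, acetyl-CoA carboxylase, which commits acetyl-CoA to fatty acids, differed by -0.12. Fasn, the synthase that builds palmitate, read -0.022, -0.060 and -0.28 in Sox2 shRNA arrays, against -0.0047, 0 and -0.037 in scrambled arrays. The 2 groups overlapped and the difference of -0.11 ± 0.10 did not pass (limma adjusted p = 0.443), so neither core enzyme of chain building was called.

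Enzymes that lengthen and desaturate the chain moved in both directions. Elovl6, the elongase that extends palmitate, fell on both of its probe sets. The values were -1.0, -1.31 and -0.90 in Sox2 shRNA arrays, against 0.16, -0.15 and -0.089 in scrambled arrays on the first. They were -0.75, -1.08 and -1.22 in Sox2 shRNA arrays, against -0.16, 0 and 0.17 in scrambled arrays on the second, and neither overlapped (differences -1.04 ± 0.14 and -1.02 ± 0.15, limma adjusted p = 0.0012 and 0.00166). The neighbouring desaturase genes Fads1 and Fads2, which act in turn on polyunsaturated fatty acids and lie 81155 bases apart by the deposited alignments on chromosome 19, went opposite ways. Fads1 read -0.91, -0.50 and -0.53 in Sox2 shRNA arrays, against -0.098, 0.13 and 0.093 in scrambled arrays. Fads2 read 0.75, 0.52 and 0.55 in Sox2 shRNA arrays, against 0.11, 0 and -0.046 in scrambled arrays. Fads1 fell by 0.69 ± 0.14 (limma adjusted p = 0.00635), while Fads2 rose by 0.59 and 0.60 on its 2 probe sets (limma adjusted p = 0.00435 and 0.00791).

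Scd1 and Scd2, which put the first double bond into stearate, gave readings that depend on the probe set. Scd1 read -0.67, -0.27 and -0.29 in Sox2 shRNA arrays, against -0.12, 0.094 and 0.089 in scrambled arrays on 1415964_at. On 1415965_at it read 0.44, 0.37 and 0.59 in Sox2 shRNA arrays, against -0.030, -0.14 and 0.075 in scrambled arrays. The first fell by 0.43 ± 0.14 and the second rose by 0.50 (limma adjusted p = 0.0423 and 0.00966), so no direction is given for the gene. The fall lost its call without any 1 of the scrambled arrays (between -0.50 and -0.39) and the rise without scrambled array 2 (0.45). Scd2 fell by 0.81 ± 0.13 on 1 probe set, while the other 2 differed by 0.26 and 0.39 and were not called. The last of these was called higher without Sox2 shRNA array 1 (0.56). Me1, malic enzyme, a source of NADPH for fatty acid synthesis, read -1.42, -0.76 and -0.75 in Sox2 shRNA arrays, against -0.065, 0.081 and 0.061 in scrambled arrays. It fell by 1.0 ± 0.18 there and fell by 0.55 ± 0.11 on its second probe set. Both Me1 probe sets have 2 deposited alignments, the first listed on chromosome 13, while the promoter entries of Me1 lie on chromosome 9.

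With the spike-in covariate, 7.13% of all probe sets were lower and 5.65% higher. Of the 19 probe sets of fatty acid synthesis 2 were then lower and 0 higher (4 at an unadjusted p under 0.05), with a median of -0.25. Both were those of Elovl6, at -1.23 and -1.29. Fads2 differed by 0.33 and 0.59, Fads1 by -0.25, Acly by -0.62 and Me1 by -0.33, none of them called. Among adipocyte markers 5 of 11 probe sets were lower (Pparg, Cd36 and Fabp4) and 1 higher (Lpl). These shares of 45.5% and 9.09% stand against 20.5% and 14.6% of all probe sets. Levels of the markers cannot be given because the values are centred.

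**Figure D2:**
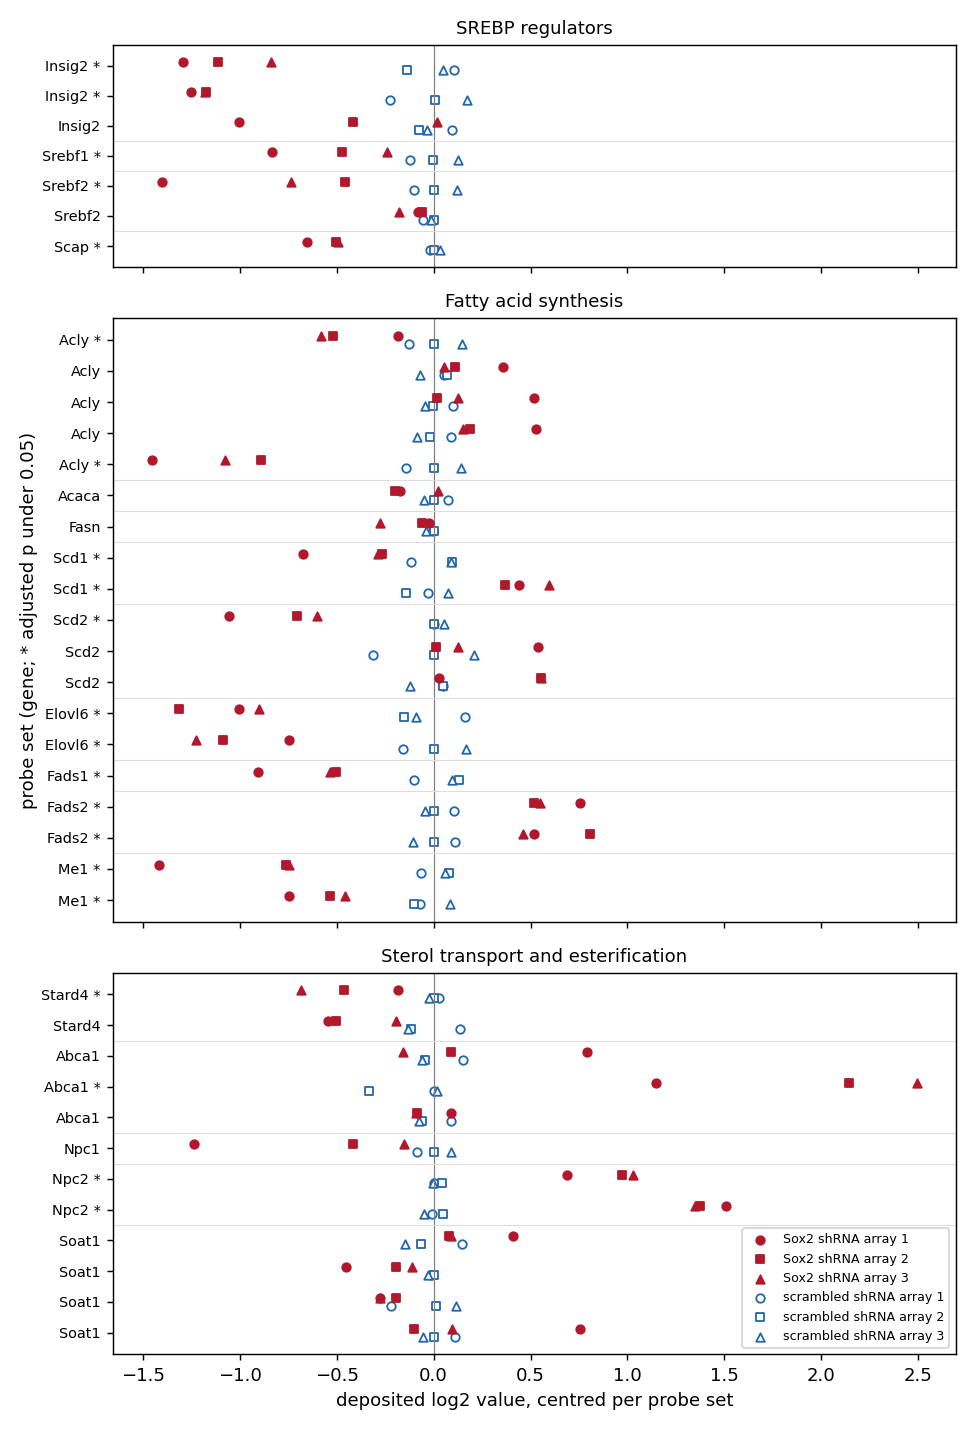
Centred log2 value of each array for the probe sets of the SREBP regulators, fatty acid synthesis and sterol transport and esterification in 3 panels, with filled red points for Sox2 shRNA arrays, open blue points for scrambled arrays and an asterisk at a limma adjusted p under 0.05. Elovl6 and the Insig2 probe sets with an asterisk lie left of the scrambled points, Fads2, Npc2 and 1 Abca1 probe set lie right of them, and Fasn and Acaca overlap.

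Sterol transport and esterification had 1 of 12 probe sets lower and 3 higher (8.33% and 25%, against 20.5% and 14.6% of all probe sets) and a median difference of 0.10. The median was -0.13 with the spike-in covariate and -0.059 without Sox2 shRNA array 1, so no direction is given for the list. The lower count was 0 without Sox2 shRNA array 2 or any 1 scrambled array and 2 without Sox2 shRNA array 3, and quantile normalization left 0 lower and 1 higher by limma (0 and 3 at an unadjusted p under 0.05). Npc2, a small lysosomal protein that hands cholesterol to Npc1, read 1.51, 1.37 and 1.35 in Sox2 shRNA arrays, against -0.0078, 0.049 and -0.048 in scrambled arrays on the first of 2 probe sets. The second read 0.69, 0.97 and 1.03 in Sox2 shRNA arrays, against 0.00015, 0.042 and -0.0028 in scrambled arrays. The Sox2 shRNA arrays were above every scrambled array on both, by 1.41 ± 0.096 and 0.88 ± 0.12 (limma adjusted p = 5.3e-05 and 0.00101). Abca1, the exporter that loads cholesterol onto apolipoproteins, read 1.15, 2.14 and 2.49 in Sox2 shRNA arrays, against 0.0048, -0.34 and 0.019 in scrambled arrays on 1421840_at. Array 1 was lowest of the 3, and the rise of 2.03 ± 0.31 is 4.09-fold (limma adjusted p = 0.00203). The other 2 Abca1 probe sets differed by 0.23 and -0.013 and were not called.

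Npc1, the lysosomal membrane protein that takes cholesterol from Npc2, read -1.23, -0.41 and -0.15 in Sox2 shRNA arrays, against -0.087, 0 and 0.090 in scrambled arrays. The groups did not overlap, but the spread was wide and the difference of -0.60 ± 0.25 did not pass (limma adjusted p = 0.098), except without Sox2 shRNA array 3 (-0.82). Stard4, a soluble carrier that moves sterol between membranes and is a known target of the binding proteins, fell by 0.44 ± 0.14 on 1 probe set (limma adjusted p = 0.0365) and differed by -0.38 on the other. The first lost its call without any 1 array other than Sox2 shRNA array 1 (between -0.46 and -0.32), and the second gained one without Sox2 shRNA array 3 (-0.49). Soat1, which esterifies cholesterol for storage, differed by 0.21, -0.24, -0.22 and 0.23, and none was called. With the spike-in covariate the rises of Npc2 (1.27 and 1.18) and Abca1 (3.09) kept their calls, and 1 probe set was lower. In that fit 5.65% of all probe sets were higher and 7.13% lower. Of 7 macrophage marker probe sets 3 were higher (42.9%, against 14.6% of all probe sets), all of Csf1r. Ptprc was at 0.48 and Cd68 at -0.19, neither called, and the part of these markers in the rises was not tested.

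Probe sets of 1 gene often differed in call, although a call on 1 and none on another is not a difference in direction. Of the 22 members with several probe sets, all were called one way in 6, some were called and some not in 11, both directions occurred in Scd1, and none was called in 4. With the probe sets of a gene averaged, 19 of the 35 genes were lower and 3 higher, against 21.7% and 16.8% of all 13215 genes. By group 11 of 17 sterol synthesis genes, 4 of 4 regulators, 3 of 9 genes of fatty acid synthesis and 1 of 5 of sterol transport were lower.

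Other genes of the pathways were read from lists outside the members. Of the remaining sterol and isoprenoid genes, 8 of 21 probe sets were lower (38.1%) and 0 higher by limma (0 also at an unadjusted p under 0.05), against 20.5% and 14.6% of all probe sets. Pdss1, which builds the coenzyme Q side chain, fell by 1.34 ± 0.19 and Dhdds, which builds dolichol, fell by 0.89 ± 0.092, on 1 probe set each. The other Pdss1 probe set differed by 0.036 and the other 2 of Dhdds by 0.049 and -0.012. With the spike-in covariate 3 of the 21 were lower and 0 higher, against 7.13% and 5.65% of all probe sets, and Pdss1 lost its call (-0.83).

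Oxysterol and efflux genes, many of them liver X receptor targets, had 9 of 18 probe sets higher (50%) and 1 lower (5.56%), with a median difference of 0.38. Over all probe sets 14.6% were higher and 20.5% lower. Ch25h, a hydroxylase that makes an oxysterol from cholesterol, read 2.51, 2.66 and 2.77 in Sox2 shRNA arrays, against 0.12, -0.019 and 0.048 in scrambled arrays. The 3 Sox2 shRNA arrays lay close together and far above the scrambled ones (difference 2.60 ± 0.11, 6.05-fold, limma adjusted p = 4.7e-06), also with the spike-in covariate (2.76). Pltp, a phospholipid transfer protein, rose by 0.97 ± 0.16 and 0.44 ± 0.12, Cyp27a1, another oxysterol-forming hydroxylase, by 0.59 ± 0.14 and Soat2, a second cholesterol esterifying enzyme, by 0.48 ± 0.13. The smaller Pltp value and that of Soat2 lost their calls without any 1 scrambled array (lowest 0.38 and 0.45), and Cyp27a1 without scrambled array 3 (0.50). With the covariate 2 of the 18 were higher and 0 lower, against 5.65% and 7.13% of all probe sets, and Pltp, Cyp27a1 and Soat2 lost their calls.

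Uptake genes had 5 of 21 probe sets lower (23.8%) and 4 higher (19.05%), near the 20.5% and 14.6% of all probe sets. With the spike-in covariate 1 was lower and 1 higher, against 7.13% and 5.65% of all probe sets. Vldlr, a lipoprotein receptor, rose by 0.87 ± 0.11 and 0.53 ± 0.14 on 2 probe sets, while the other 2 differed by 0.51 and 0.22 and were not called. Lipa, the lysosomal lipase that frees cholesterol, rose by 0.61 ± 0.12 on 1 probe set, which lost its call with the covariate, and differed by 0.24 and 0.095 on the others. Lrp1, another lipoprotein receptor, fell by 1.02 ± 0.095. The smaller rise of Vldlr lost its call with the covariate and without Sox2 shRNA array 3 (0.46) or scrambled array 2 (0.42) or 3 (0.56). Genes that process or degrade the binding proteins had 4 of 10 probe sets lower (40%) and 0 higher by limma (1 at an unadjusted p under 0.05), against the same 20.5% and 14.6%. With the spike-in covariate 0 of 10 were called, against 7.13% lower and 5.65% higher of all probe sets. Among the 4 were Fbxw7, a ubiquitin ligase subunit that marks the binding proteins for breakdown (-0.80 ± 0.26), and Erlin1 (-0.35 ± 0.091). A second probe set of each was not called, that of Fbxw7 at -0.00046 and that of Erlin1 at -0.039. The first Fbxw7 value lost its call without any 1 array but Sox2 shRNA array 3 (smallest -0.52) and that of Erlin1 without any 1 scrambled array (smallest -0.32).

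Of the other lipogenic genes 5 of 36 probe sets were lower (13.9%) and 4 higher (11.1%), both below the shares of all probe sets. With the spike-in covariate these were 3 and 1, against 7.13% and 5.65% of all probe sets. Acss2, which makes acetyl-CoA from acetate in the cytosol, rose by 1.57 ± 0.21 on 1 probe set (0.77 with the covariate, still called) and differed by 0.25 on the other. Mid1ip1, which promotes carboxylase activity, fell by 1.62 ± 0.19. Elovl5, an elongase of polyunsaturated fatty acids, fell by 1.71 ± 0.36 on 1 probe set, with Sox2 shRNA array 1 lowest at -2.67, and differed by -0.22 on the other. With the covariate the first differed by -0.28 and was not called. Aacs, which makes acetoacetyl-CoA, fell by 1.0 ± 0.15 on 1 probe set and rose by 0.56 ± 0.099 on another, and neither was called with the covariate.

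Fatty acid oxidation had 11 of 27 probe sets lower (40.7%) and 5 higher (18.5%), against 20.5% and 14.6% of all probe sets. With the spike-in covariate 6 were lower and 0 higher, against 7.13% and 5.65%. Acadm, a dehydrogenase of medium chains, fell by 1.34 ± 0.11, Pdk4, the kinase that spares glucose, fell by 1.81 ± 0.17 and Etfdh, which passes electrons from oxidation to the respiratory chain, fell by 1.46 ± 0.27. With the covariate Etfdh differed by -0.46 and was not called. Hadh, an oxidation enzyme, fell on its 3 probe sets (differences of -0.49, -1.08 and -1.33).

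**Figure D3:**
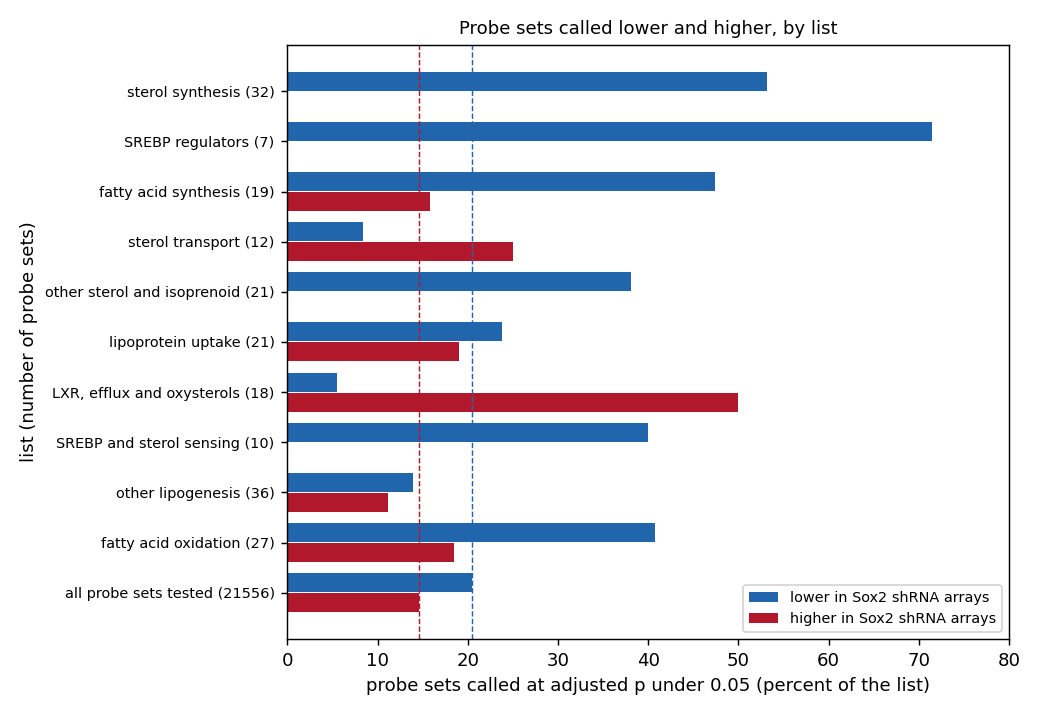
Percent of probe sets called lower and higher in each list, as horizontal bars, with dashed lines at 20.5% and 14.6%, the shares over all 21556 probe sets. Sterol synthesis (53.1% lower, 0% higher) and oxysterol and efflux genes (5.56% lower, 50% higher) lie on opposite sides of those lines.

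The spike-in covariate changed the members' differences unequally. The Cyp51 probe set given first stayed at -1.23 (limma adjusted p = 0.0028) and Ebp at -1.11 (limma adjusted p = 0.00921), about as large as without it. The second Cyp51 probe set lost its call, at -0.44 (limma adjusted p = 0.321), and the last gained one, at -0.55. Sqle was at -0.82 and Msmo1 at -0.81, both smaller but still called. Idi1 kept its call on the first probe set (-1.25) and not on the second (-0.79, limma adjusted p = 0.0504). The Hmgcs1 probe set 1433445_x_at was at -1.03 (limma adjusted p = 0.0102). Srebf1 and Scd1 on 1415964_at changed sign, to 0.032 and 0.023.

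**Figure D4:**
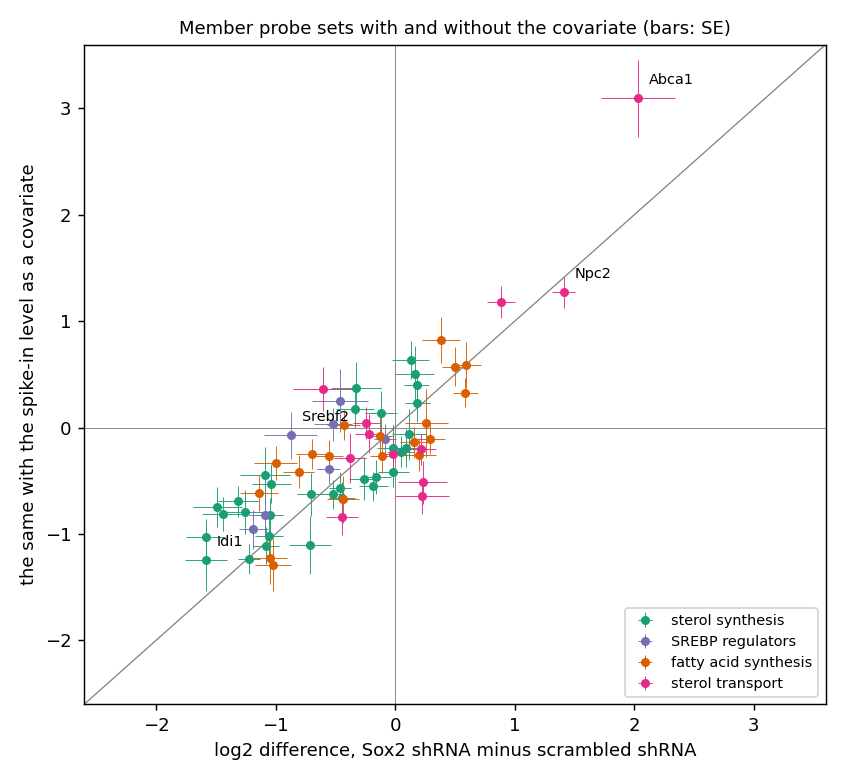
Log2 difference of each member probe set with the spike-in covariate (vertical axis) against the difference without it (horizontal axis), with bars of 1 SE of limma. The named Npc2 point lies near the diagonal (1.41 and 1.27), Abca1 lies above it (2.03 and 3.09) and Srebf2 lies near 0 on the vertical axis.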

How the data were processed

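Total RNA of 6 plates was labelled and hybridised to 1-colour Affymetrix mouse 430A 2.0 arrays, 1 array per plate, per the labels' protocols. GCOS 1.4 and RMA are the tools the authors name, per the submitters' processing notes. The deposited values are taken as log2 because RMA returns log2, but the base is not stated, nor are RMA's settings and the genome build of the deposited alignments. The authors' values are centred per probe set near 0 in the scrambled arrays, as the values themselves show, so signal over background is unknown and the number of arrays limits the precision. Both deposited tables hold the same values (0 cells differ).

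Of 22690 probe sets, 578 naming several genes, 543 naming none and 64 controls, 51 of them already counted among these, were left out. The 21556 others entered limma (version 3.58.1 in R 4.3.3, functions lmFit and eBayes), without covariates, with Benjamini-Hochberg adjustment at 0.05. Single control measures had a two-sided exact permutation test. RefSeq names matched 21181 probe sets, and 27 of the 35 members had a RefSeq promoter entry. Replicate numbers are shared between the groups but did not pair the arrays: same-numbered arrays' deviations correlated at 0.13, -0.020 and 0.17. The members and lists were chosen with earlier results of these data known. Every member is accounted for, and up to 4 genes of each other list are named, by smallest adjusted p. Some genes under that rule are not reported here. The scripts were tested on simulated data. Figures were drawn with matplotlib 3.10.9. Alternatives were other scalings, probe set rules, variance models, thresholds, the replicate block, the spike-in covariate and each array left out.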

Additional observations from a re-analysis of the deposited data

How the results depend on the processing

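Precision rests on 3 plates a group, and without levels dim probe sets cannot be set apart. Robust moderation and leaving out members on chromosomes X and 10 left each count of calls within 1.5 times. The other deposited table holds the same values, so its fit could only repeat the counts. The largest departure was quantile normalization, which by construction gives all arrays 1 common spread, although the scrambled arrays were narrower. By limma it left 1 member probe set lower and 1 higher. By list, it left 1 probe set lower in sterol synthesis and 0 among regulators. It left 0 lower and 0 higher in fatty acid synthesis, and 0 lower and 1 higher in sterol transport. At an unadjusted p under 0.05 these were 20 and 3 of all member probe sets, 13 and 0 of sterol synthesis and 3 and 0 of regulators. Fatty acid synthesis had 4 and 0, and sterol transport 0 and 3. The share of all probe sets called in that fit was not counted. Quantile normalization gave medians of -0.17 for member probe sets and -0.31 for sterol synthesis. With the spike-in covariate 18 member probe sets were lower and 3 higher, against 7.13% and 5.65% of all probe sets. Among regulators 1 probe set was lower, and in fatty acid synthesis 2 were lower and 0 higher. The medians were -0.27 for members, -0.54 for sterol synthesis, -0.11 for regulators, -0.25 for fatty acid synthesis and -0.13 for sterol transport. That covariate turned Srebf1 to 0.032, Scd1 on 1415964_at to 0.023 and Fbxw7 to 0.085, and the cause was not tested.

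With probe sets averaged per gene, and so fewer features, 19 members were lower and 3 higher (median -0.41), 11 lower in sterol synthesis (median -0.47), and 3 lower and 1 higher in fatty acid synthesis. Centring each array gave medians of -0.41 for members, -0.50 for sterol synthesis and -0.17 for fatty acid synthesis, and array weights gave -0.28 for members and -0.48 for sterol synthesis. Without _x_at and _s_at probe sets the medians were -0.40 for members and -0.43 for fatty acid synthesis. A threshold of 0.01 left 3 regulator probe sets lower, all of Insig2 or Scap. The single lower call of sterol transport became 0 at 0.01 or with a size of at least 0.5, and 2 with centring or array weights. With the replicate number as a block it was also 2, by gaining Npc1, while 1 Acly probe set lost its call, and the numbers do not pair the arrays.

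Leaving out 1 array at a time gave 25 to 34 member probe sets lower, 5 to 7 higher and a median of -0.40 to -0.28. In sterol synthesis 15 to 18 were lower (median -0.50 to -0.42). Of the regulator probe sets 3 to 6 were lower (median -0.70 to -0.50). Of those of fatty acid synthesis 7 to 9 were lower and 2 to 4 higher (median -0.20 to -0.10). Sterol transport had 0 to 2 probe sets lower and 3 higher (median -0.059 to 0.16). The spike-in difference ranged between 0.31 and 0.51. Within the 150 bases nearest the start, the sterol synthesis genes with a match were 92.9% for the NF-Y box, 50% for the GC box, 7.14% for the E-box and 0% for the sterol regulatory element.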
